A study of Rattus norvegicus with 15 samples.

Results

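The genes described here are the 199 that, among genes well represented in the RNA of the neonatal rat brain, had the fewest ribosome footprints in the RNA granule fraction relative to that RNA while still having footprints. They were taken from 22044 genes with a value in every library. The starting pool held 10173 genes, those whose mean in RNA-seq libraries 1 to 3 reached 10 CPM (a gene's counts scaled to a library total of 1e+06). For each gene the mean CPM of vehicle footprint libraries 1 to 3 was divided by the mean CPM of RNA-seq libraries 1 to 3, with 0.1 CPM added to both, and expressed as a log2 ratio. The 119 pool genes with a ratio under -5, which had almost no footprints, were set aside, and the 200 genes with the lowest remaining ratios were taken, of which 1 is not reported. The members were thus chosen by the values of vehicle footprint and RNA-seq libraries 1 to 3, which are given as a description only. Vehicle footprint libraries 4 and 5, both salt libraries and RNA-seq libraries 4 and 5 took no part in the choice.

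Ribosome profiling sequences the short pieces of mRNA that a ribosome shields from nuclease, so that the number of pieces per gene reflects how many ribosomes sat on its mRNA. Neurons pack mRNAs with paused ribosomes into dense RNA granules, which are carried into dendrites and axons and can resume translation there. Other mRNAs are translated on lighter polysomes, which stay above the pellet in a gradient, and some RNAs carry few ribosomes in any fraction. The gradient fractions above the pellet have no libraries here, so the footprints of the members outside granules were not measured.

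Each homogenate pooled 5 whole brains of rats of the Sprague Dawley strain, aged 5 postnatal days. The granule fraction was the pellet of a sucrose gradient, and its footprints were released with RNase I. The 5 vehicle libraries had no addition, the 3 cycloheximide libraries had 100 ug/ml of this inhibitor of translation elongation in the homogenate, and the pellets of the 2 salt libraries were held in 400 mM NaCl and brought back to 150 mM before digestion. The 5 RNA-seq libraries were made from homogenate labelled as control, before any fractionation, so the 2 kinds of library also differ in preparation. Sex was not given in the sources used here, and whole brain mixes all its cell types. In such bulk samples fewer cells of a type and less RNA per cell cannot be told apart. The deposited table identifies genes by Ensembl ID and does not pair the IDs with names, so only 2 members are identified and the others are described by their values and ranks. For the same reason the tissue label was not checked against marker genes, and no sequence of a member is shown.

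Vehicle, cycloheximide and RNA-seq libraries 1 to 3 were deep, at 19223750 to 53645452 counts. Vehicle libraries 4 and 5, the salt libraries and RNA-seq libraries 4 and 5 were shallow, at 941546 to 2808669 counts. In the deep libraries 3 counts corresponded to 0.0559 to 0.156 CPM and in the shallow ones to 1.07 to 3.19 CPM, which is close to the footprint level of many members. The deep and shallow libraries also differ in which cells of the table are empty, so depth and deposited batch cannot be told apart.

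In the libraries that chose them, the members had RNA levels in the ordinary range of the pool and footprints far below it. Their mean level in RNA-seq libraries 1 to 3 ran from 10.2 to 553 CPM with a median of 32.0 CPM, against a pool median of 46.4 CPM. Their mean level in vehicle footprint libraries 1 to 3 ran from 0.327 to 44.1 CPM with a median of 2.73 CPM, against a pool median of 30.8 CPM. The word translated in the working name of this set rests on the presence of footprint reads. Every member had at least 38 counts summed over vehicle libraries 1 to 3, and the median member had 343. Whether all of these reads came from ribosomes cannot be read from a table of counts per gene.

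The rule cut through a continuous distribution. The lowest log2 ratio was -4.76, from 1.08 CPM of footprints and 31.9 CPM of RNA, and the second lowest was -4.74. The last 2 genes inside had ratios of -2.96 (2.59 CPM of footprints and 20.9 CPM of RNA) and -2.96 (11.5 and 89.9 CPM). The first 2 outside had -2.96 (47.0 and 366 CPM) and -2.95 (7.00 and 54.9 CPM). The members at the edge therefore resemble their neighbours outside it. The median ratio of the members was -3.38 and that of the pool -0.52.

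**Figure D1:**
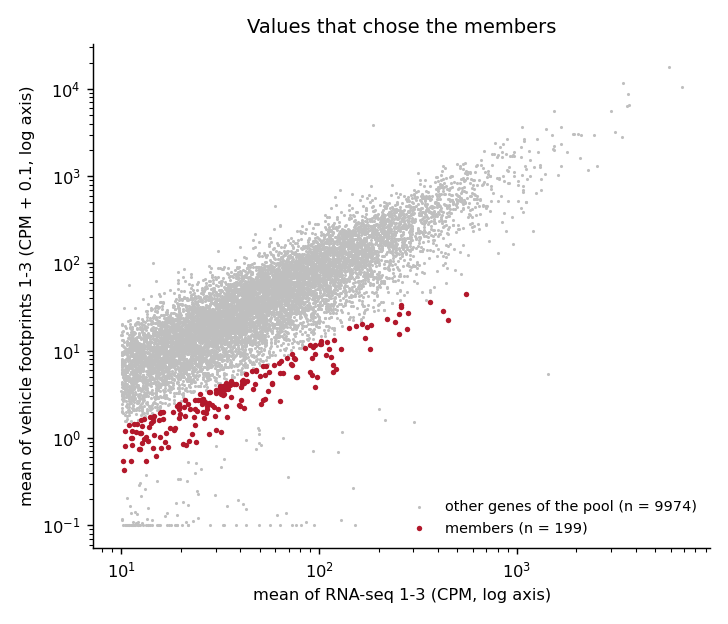
Mean footprint level (vertical axis, CPM + 0.1, log scale) against mean RNA level (horizontal axis, CPM, log scale) in the libraries that chose the members, 1 point per gene. The 199 members lie along the lower edge of the cloud of the pool, above the scattered genes with almost no footprints, and reach an RNA level of 553 CPM.

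The depletion of the members was seen again in the libraries that took no part in their choice, and it was smaller there. The median log2 ratio of vehicle footprint libraries 4 and 5 to RNA-seq libraries 4 and 5 was -2.57 over all 199 members, against -0.31 over the pool. At the median a member thus had 5.94-fold less of the footprint counts than of the RNA counts, where the gene in the middle of the pool had 1.24-fold less. The lower and upper quartiles of the members were -4.11 and -1.69, and those of the pool -0.98 and 0.23. With the 14 members that had no count in either vehicle library set to the floor of 3 counts, the member median was -2.48. A ratio below 0 was found in 186 members (93.5%) and in 64.8% of the pool.

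**Figure D2:**
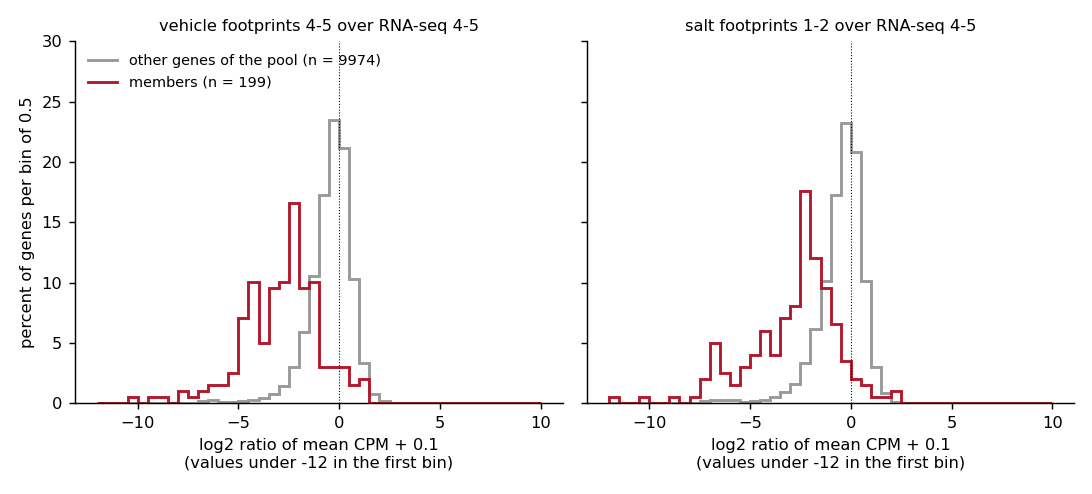
Distribution of the log2 ratio of mean footprint CPM to mean RNA-seq CPM, both + 0.1, in libraries outside the rule, as the percent of genes per bin of 0.5, with the dotted line at 0. The members (median -2.57 for vehicle and -2.39 for salt) lie to the left of the other pool genes in both panels, with a tail to low ratios formed in part by members at 0 counts.

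Both footprint libraries lay below both RNA-seq libraries in 170 of the 199 members (85.4%), against a background of 40.5% of the pool. The order was the opposite in 3 members, against 15.5% of the pool, and the groups overlapped in 26. In an edgeR quasi-likelihood test over 11642 genes, 39 of the 199 members were called lower in footprints than in RNA at an adjusted p under 0.05, which is 19.6% of them. The background was 2.18% of all genes tested, and 0 members were called higher, where 1.61% of all genes were. At an unadjusted p under 0.05, 109 members were lower and 0 higher, against 11% of all genes lower and 8.92% higher. Of the 199 members 184 passed the filter on low counts, which a gene can pass through its RNA counts alone. When the filter was instead a mean of at least 10 CPM in RNA-seq libraries 1 to 3, which are outside the fit, all 199 members were tested and 50 were called lower, against 2.62% of the 10162 genes, and 0 were called higher, against 2.34%.

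The median ratio of the members depended on single libraries. Leaving out a single library left 1 library in its group, so no calls are given for these fits. The median log2 ratio of the members was -2.74 without vehicle library 4 and -3.23 without vehicle library 5. It was -2.64 without RNA-seq library 4 and -2.47 without RNA-seq library 5. Between vehicle libraries 4 and 5 the median SD of log2(CPM + 1) was 0.74 in the members and 0.40 in the pool. The median member had 3.62 CPM in these libraries and the median pool gene 31.2 CPM. The SDs were not matched for level, so counting error at low levels is part of this difference. With total counts in place of TMM factors, 51 members were called lower and 0 higher, while the split of all genes moved from 254 lower and 187 higher to 358 lower and 64 higher. Over all tested genes the fitted log2 ratio had a median of -0.08 with TMM factors and of -0.33 with total counts.

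The median ratio of the members varied little with RNA level, but the calls did. In the 31 members of at least 100 CPM in RNA-seq libraries 1 to 3 the median log2 ratio in libraries 4 and 5 was -2.41, and 18 of them were called lower. In the 35 members of 50 to 100 CPM it was -2.69 with 14 called, and in the 78 members of 20 to 50 CPM it was -2.58 with 4 called. In the 55 members of 10 to 20 CPM it was -2.81, or -2.39 with members at 0 set to the floor, and 3 were called. The share of all pool genes called lower was 4.52%, 2.32%, 0.892% and 1.20% over the same RNA levels, from high to low. The median log2 ratio of the pool was -0.05, -0.27, -0.45 and -0.62 in the same order. The 14 members with no count in vehicle libraries 4 and 5 all had under 50 CPM in RNA-seq libraries 1 to 3. In all, 40 members had 3 counts or fewer in each of these vehicle libraries, so for them the ratio is at best a bound.

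Members with the lowest ratio in the deep libraries also had the lowest median in the shallow ones. Split into 3 parts by the ratio that chose them, the 66 lowest members had a median of -3.04 in libraries 4 and 5, the middle 66 of -2.76 and the highest 67 of -2.25. With members at 0 set to the floor these medians were -2.73, -2.65 and -2.24. The same rule applied to libraries 4 and 5 alone drew on 9768 genes of at least 10 CPM. Its 200 lowest genes held 47 of the 199 members (23.6%). A further 14 members (7.04%) were among the 141 genes with a ratio under -5. Another 45 members fell under 10 CPM in RNA-seq libraries 4 and 5 and could not enter that list.

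**Figure D3:**
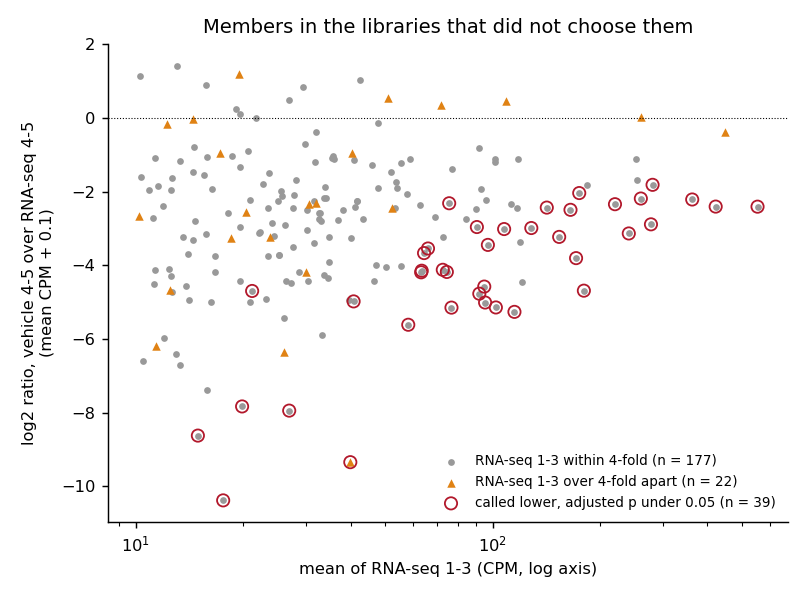
Log2 ratio of vehicle footprints 4 and 5 to RNA-seq 4 and 5 (vertical axis, mean CPM + 0.1) for each of the 199 members against its mean RNA level in RNA-seq 1 to 3 (horizontal axis, log scale). The 39 members called lower (circles) lie mostly at 50 CPM and above, and triangles mark the 22 members whose RNA-seq libraries 1 to 3 lay over 4-fold apart, 5 of which are above the dotted line at 0.

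The 39 members called lower covered a wide range of levels. Their mean in RNA-seq libraries 4 and 5 ran from 22.7 to 3924 CPM with a median of 72.4 CPM, and their mean in vehicle footprint libraries 4 and 5 from 0 to 78.4 CPM with a median of 5.94 CPM. For the 35 that had a footprint count, the fitted log2 ratio ran from -9.04 to -1.55 with a median of -3.38, and the other 4 were at 0 in both libraries.

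ENSRNOG00000014900 had the most RNA among them. It stood at 80.8, 28.3, 10.6, 4557 and 3291 CPM in RNA-seq libraries 1 to 5. Its footprints were at 2.75, 2.48, 1.42, 3.69 and 8.19 CPM in vehicle libraries 1 to 5. Every footprint library lay below every RNA-seq library, while the RNA level itself differed widely between the deep and the shallow libraries. In libraries 4 and 5 its mean was 3924 ± 895 CPM (SD, n = 2) in RNA and 5.94 ± 3.18 CPM (SD, n = 2) in footprints. The log2 ratio was -9.04 (SE 0.40, edgeR adjusted p 9.57e-06). This gene and ENSRNOG00000049336 were picked for the lowest log2 ratios in this same test, so their values are extremes of it. Both are among the 3 members whose RNA rose by more than 4-fold from RNA-seq libraries 1 to 3 to libraries 4 and 5. In the cycloheximide libraries ENSRNOG00000014900 had 1.82, 1.49 and 2.25 CPM, and in the salt libraries 2.12 and 0 CPM. Its footprints were thus under 10 CPM in every library.

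ENSRNOG00000049336 had no count in vehicle libraries 4 and 5, against 114 and 152 CPM in RNA-seq libraries 4 and 5. Its RNA level was thus 133 ± 26.4 CPM (SD, n = 2), at least 100.4-fold higher than the footprint floor of 3 counts per library, averaged over both libraries (edgeR adjusted p 0.000431). In the deep libraries its RNA stood lower, at 11.5, 12.4 and 28.8 CPM, and its vehicle footprints at 2.17, 0.539 and 0.857 CPM. The cycloheximide libraries had 1.25, 0.847 and 0.626 CPM and the salt libraries 2.12 and 0 CPM. Both groups of RNA-seq libraries lay above all footprint libraries, but the gap was far wider in the shallow set.

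The members with the most RNA in the deep libraries give the best measured footprint levels, since most of their footprint levels lay far above the floor. The member with the highest RNA level, at 606, 617, 435, 273 and 286 CPM in RNA-seq libraries 1 to 5, had 29.3, 48.9, 54.0, 37.5 and 67.6 CPM in vehicle libraries 1 to 5. Its log2 ratio in libraries 4 and 5 was -2.14 (SE 0.34, edgeR adjusted p 0.0144). The member ranking 3 had 487, 426, 352, 252 and 268 CPM in RNA-seq libraries 1 to 5 and 35.5, 20.9, 29.6, 59.1 and 38.8 CPM in vehicle libraries 1 to 5. In both of these genes every footprint library lay below every RNA-seq library, and the RNA was lower in the shallow libraries than in the deep ones.

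The member ranking 4 kept its RNA level across the sets, at 398, 368, 322, 355 and 373 CPM in RNA-seq libraries 1 to 5. Its footprints were 62.4, 19.4, 27.8, 74.9 and 81.9 CPM in vehicle libraries 1 to 5. Vehicle library 1 resembled the shallow libraries here more than it resembled vehicle libraries 2 and 3. The log2 ratio was -1.96 in libraries 4 and 5 (SE 0.24, edgeR adjusted p 0.00471). The member ranking 10 was not called. It had 55.4 and 65.5 CPM in vehicle libraries 4 and 5 against 132 and 132 CPM of RNA, and its log2 ratio was estimated at -0.87 (SE 0.30, edgeR adjusted p 0.151).

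Some members had RNA levels that rested on 1 or 2 high libraries. The member ranking 2 by RNA had 1031, 283, 26.4, 22.1 and 24.7 CPM in RNA-seq libraries 1 to 5. Its footprints were 23.0, 22.4, 21.9, 2.64 and 33.1 CPM in vehicle libraries 1 to 5. Its footprints were thus steady in the deep libraries, and its log2 ratio in libraries 4 and 5 was -0.08 (SE 0.92, edgeR adjusted p 0.973). The member ranking 8 had 417, 34.0, 329, 21.3 and 21.2 CPM in RNA-seq libraries 1 to 5, and its log2 ratio in libraries 4 and 5 was 0.25 (SE 0.57, edgeR adjusted p 0.856).

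Such uneven RNA was found in 22 of the 199 members (11.1%), defined after the values were seen as a more than 4-fold difference between the highest and lowest of RNA-seq libraries 1 to 3. In the pool 84 genes (0.826%) were that uneven. These libraries entered the ratio of the rule, and a single high RNA library lowers that ratio. The contrast with the pool is therefore partly built in by the rule and is only a description. RNA-seq library 1 was the highest in 15 of the 22 members. Their median log2 ratio in libraries 4 and 5 was -2.32, or -0.96 with members at 0 set to the floor, and 1 of them was called lower. The other 177 members had a median of -2.69, or -2.58 with the floor, 169 of them lay below 0, and 38 were called lower. Leaving out RNA-seq library 1, 2 or 3 from the ratio of the rule brought 35, 17 and 7 members above the ratio at which the set was cut. Leaving out 1 of these libraries brought 9 members above a log2 ratio of -2.

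**Figure D4:**
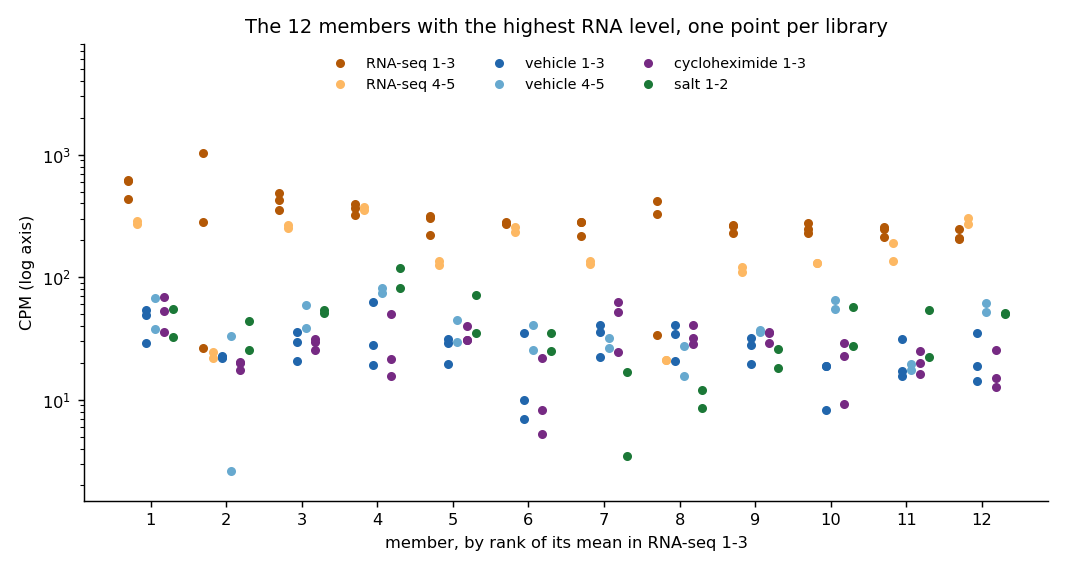
CPM (log axis) of the 12 members with the highest mean in RNA-seq 1 to 3, by rank, with 1 point per library and 1 colour per group of libraries. All footprint points lie under all RNA-seq points, except in the members ranking 2 and 8, where the RNA-seq 4 and 5 points and 1 deep RNA-seq point fall among the footprints.

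A positive ratio in libraries 4 and 5 was found in 13 members. Their RNA was low there, at a median of 7.04 CPM and at most 21.3 CPM, against a median of 27.0 CPM in RNA-seq libraries 1 to 3, and it was lower than in libraries 1 to 3 in all 13. Their median footprint level was 11.9 CPM in vehicle libraries 4 and 5 and 2.20 CPM in vehicle libraries 1 to 3. None of the 12 that were tested was called, and the lowest edgeR adjusted p among them was 0.428.

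In RNA-seq libraries 4 and 5 the members' RNA lay further below the pool than in libraries 1 to 3. Their footprints did not move in 1 direction. The member median was 0.066 and 0.129 of the pool median in vehicle libraries 4 and 5, against 0.076 to 0.104 in vehicle libraries 1 to 3. The median log2 ratio of RNA-seq libraries 4 and 5 to libraries 1 to 3 was -0.65 in the members and -0.29 in the pool. The corresponding value for vehicle footprints was 0.24 in the members, with quartiles of -1.22 and 1.20, and -0.08 in the pool. Since libraries 1 to 3 were used to choose genes with much RNA and few footprints, these values are given only as a description. The RNA of 19 members (9.55%) fell by more than 4-fold between the sets, against 0.885% of the pool. That of 3 members (1.51%) rose by as much, against 0.708% of the pool.

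The salt footprints gave a similar picture against the same 2 RNA-seq libraries. Against RNA-seq libraries 4 and 5 the log2 ratio had a median of -2.39 in the members and -0.33 in the pool. With the 23 members at 0 in both salt libraries set to the floor, the member median was -2.16. In all, 69 members had 3 counts or fewer in each salt library, so for them the ratio is at best a bound. Both salt libraries lay below both RNA-seq libraries in 169 members (84.9%), against 40.9% of the pool. edgeR called 27 of the 199 members lower, where 2% of the 11002 genes tested were called lower, and 0 higher, where 1.37% were. Unadjusted p-values under 0.05 were found for 101 members lower and 0 higher, against 11.4% and 9.58% of all genes. With the filter on RNA-seq libraries 1 to 3, 35 members were called lower and 0 higher, against 2.37% and 1.98% of genes. All 39 members called lower with vehicle had a fitted ratio below 0 with salt and 21 of them were called there too, but both comparisons use RNA-seq libraries 4 and 5. The median log2 ratio of the members was -3.56 without salt library 1 and -2.34 without salt library 2. With total counts 34 members were called lower, and the split of all genes moved from 220 lower and 151 higher to 332 lower and 48 higher.

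The 22 members with uneven RNA stood apart here as well. Their median log2 ratio of salt footprints to RNA was -0.57, or -0.06 with the floor, against -2.43, or -2.21 with the floor, in the other 177.

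The direct comparison of salt with vehicle footprints asked whether 400 mM NaCl before digestion changed the members' footprints, and no such change was detectable at this depth. The median log2 ratio of salt libraries 1 and 2 to vehicle libraries 4 and 5 was 0.01 in the members and -0.02 in the pool. The member median was 4.25 and 1.73 CPM in salt libraries 1 and 2 and 2.11 and 3.92 CPM in vehicle libraries 4 and 5, so both vehicle values lay between the salt values. Both salt libraries were below both vehicle libraries in 26 members (13.1%, pool 14.7%) and above them in 31 (15.6%, pool 13.5%). edgeR called 0 members among 9803 genes tested and 0 of all genes, and none of the 71 members tested had an unadjusted p under 0.05, where 1.12% of all genes were lower and 0.765% higher at that level. DESeq2 and limma-voom also called 0 members. The other 128 members did not pass the filter on low counts. With the filter on RNA-seq libraries 1 to 3, 193 members were tested, of which 0 were called, and 2 were lower and 3 higher at an unadjusted p under 0.05. Without salt library 1 the median of the members was -0.69. On simulated counts the edgeR test of salt against vehicle recovered 2% of genes lowered by 2 log2 units. The lowered genes were drawn from those with a mean of at least 10 CPM in the libraries compared. The median member had 3.62 CPM in vehicle libraries 4 and 5 and 3.85 CPM in the salt libraries. Recovery at the level of most members was therefore not simulated, and the absence of calls leaves such changes undecided.

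**Figure D5:**
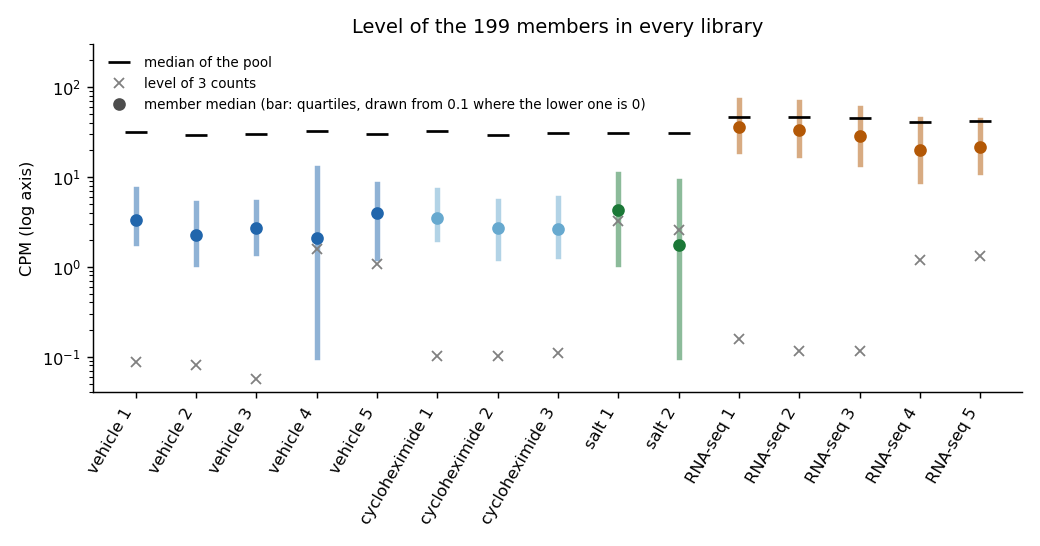
Level of the 199 members in each of the 15 libraries (CPM, log axis), with points at the member median, bars from the lower to the upper quartile, dashes at the pool median and crosses at the level of 3 counts. Member medians are 1.73 to 4.25 CPM in the 10 footprint libraries and 19.7 to 36.0 CPM in the 5 RNA-seq libraries, while pool medians are near 30 CPM in all footprint libraries.

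The cycloheximide libraries are set beside the deep vehicle libraries as a description only, because low values in vehicle libraries 1 to 3 chose the members. The member median was 3.44, 2.71 and 2.65 CPM in cycloheximide libraries 1 to 3 and 3.30, 2.24 and 2.72 CPM in vehicle libraries 1 to 3. The members took 0.113% ± 0.010 (SD, n = 3) of the counts with cycloheximide and 0.108% ± 0.017 (SD, n = 3) with vehicle. From vehicle to cycloheximide libraries 1 to 3 the median log2 ratio was 0.05 in the members, with quartiles of -0.19 and 0.28, and 0.02 in the pool. No test was made of this difference. Without cycloheximide library 1 the median was -0.06, and without vehicle library 1 it was 0.27.

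The library numbered 1 held more of the members' footprints than libraries 2 and 3, with and without cycloheximide. Vehicle library 1 was the highest of the 3 deep vehicle libraries in 124 members (62.3%), against 46.8% of the pool, and cycloheximide library 1 was the highest of its group in 102 members (51.3%), against 43.0% of the pool. In 89 members (44.7%) both were the highest, against 37.6% of the pool. RNA-seq library 1 was also the highest of libraries 1 to 3 in 112 members (56.3%) and 42.3% of the pool. The log2 ratios of library 1 to the mean of libraries 2 and 3 had a Pearson correlation of 0.75 across the 199 members between vehicle and cycloheximide. Across the 10173 pool genes it was 0.85, so the parallel was not stronger in the members. These are correlations across genes, which share the libraries and are not independent. The vehicle libraries were used in the choice of the members, and a batch behind the library numbers was not tested.

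As a share of all counts the members were a small part of every library. They took 1.42%, 1.19% and 1.01% of the counts in RNA-seq libraries 1 to 3 and 1.29% and 1.25% in RNA-seq libraries 4 and 5. The shares of RNA-seq libraries 4 and 5 include ENSRNOG00000014900, which alone stood at 4557 and 3291 CPM there. In RNA-seq libraries 1 to 3 that gene was at 80.8, 28.3 and 10.6 CPM. The members took 0.0931% to 0.126% in the deep vehicle libraries, 0.166% and 0.157% in vehicle libraries 4 and 5, and 0.177% and 0.160% in the salt libraries. The shares of the shallow footprint libraries lay above those of all 6 deep ones.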

How the data were processed

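Ribosome-protected fragments and homogenate RNA of rat brain were sequenced in 15 libraries. The authors deposited 1 table of raw counts per Ensembl gene, whole numbers without normalisation. Per the submitters' processing notes, CASAVA, cutadapt 2.8, Bowtie2 2.3.5, STAR 2.7.3a, deepTools and the build Rnor_6.0 were used, with no role or order. The counting program and annotation were not given in the sources used here. Of 22050 genes, 6 with empty cells in 9 libraries were left out. Groups and numbers came from the sample titles. Where nothing says that libraries came from separate homogenates, p-values measure only the spread between libraries.

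CPM was computed from column totals. The main test was edgeR 4.0.16 (R 4.3.3) in its quasi-likelihood form, with TMM factors and the filterByExpr filter, on the libraries compared, with Benjamini-Hochberg adjustment over all genes tested and calls under 0.05. A standard error was the absolute log2 ratio divided by the square root of F. Alternatives used DESeq2 1.42.0, limma 3.58.1, other scalings, filters and rules, and left out single libraries. The procedure was run on simulated counts in which 200 genes were lowered in 1 group. These genes were drawn from those with a mean of at least 10 CPM over the libraries compared. For salt against vehicle most members lie below that level. A lowering by 2 log2 units was recovered in 26.5% of them for vehicle against RNA and in 25% for salt against RNA. For salt against vehicle it was recovered in 2%, and a lowering by 3 log2 units in 48%. Having 2 libraries a group limits precision, and the floor of 3 counts covers counting error only, since PCR reads are not independent molecules where no molecular identifier is counted. Whether both mates of RNA-seq pairs were counted is not given in the sources used here, and 1 alternative halved those counts.

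The members and lists were chosen with earlier results of these data known. Genes identified by ID are the 2 members called lower with the lowest log2 ratios and at least 50 CPM in RNA-seq libraries 4 and 5. The rule also named members with the highest RNA, given here by rank. Gene lists by name and protein features were not used here, because the IDs were not paired with names. Members not reported number 1.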

Additional observations from a re-analysis of the deposited data

How the results depend on the processing

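In vehicle against RNA, 39 members were called lower. The count was 70 with DESeq2, 80 without a filter on low counts, 68 with the replicate block on library numbers 4 and 5, and 25 among the 100 lowest ratios. Leaving out single libraries gave 28 to 121, with 1.48% to 15.3% of all genes called lower. Of all genes, 489 were called lower and 485 higher with DESeq2, 705 and 526 without the filter, and 491 and 347 with the block. Deviations of vehicle and RNA-seq libraries with the same number, 4 or 5, had a correlation of -0.05 across genes. The numbers were therefore not taken to pair the samples in that comparison. In salt against RNA, 27 members were called lower. The count was 48 with DESeq2, 79 without the filter, 16 among the 100 lowest, and 25 to 115 with single libraries left out. Of all genes, 2% were called lower in that comparison, 3.37% with DESeq2 and 4.47% without the filter. In salt against vehicle the count of members was 0 in every setting with 2 libraries a group. The median log2 ratio of the members to RNA was -2.57 for vehicle and -2.39 for salt. With single libraries left out it was -3.23 to -2.47 and -3.56 to -2.34. It was -3.11 for vehicle with the 100 lowest. With a pseudocount of 1 CPM in the rule, which kept 110 of the 199 members, it was -3.54 and -3.50. Leaving out single libraries moved the median of salt to vehicle from 0.01 to between -0.69 and 0.53, and that of cycloheximide to vehicle from 0.05 to between -0.06 and 0.27. The latter was -0.057 without cycloheximide library 1, -0.04 without vehicle library 2 and 0.27 without vehicle library 1. ENSRNOG00000049336 lost its call in salt against RNA with limma-voom (adjusted p 0.0549). A pseudocount of 1 CPM in the ratio, and left-out libraries or other rules for cycloheximide, were chosen after seeing the data. The comparison of protein features with a pool of at least 50 CPM was not run. Halved RNA-seq counts leave CPM and its medians as they are. Depth limits the 40 members at 3 counts or fewer in both vehicle libraries 4 and 5, and the 69 at that level in both salt libraries.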
